A study of Homo sapiens with 22 samples.

Results

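The enzymes from aldolase to lactate dehydrogenase carry glucose carbon through the lower part of glycolysis, and 10 genes that encode them were followed in neuroblastoma cell lines kept in hypoxia or normoxia. The genes were ALDOA, ALDOC, TPI1, GAPDH, PGK1, PGAM1, ENO1, ENO2, LDHA and LDHB. They were chosen by name, as the aldolases, enolases and lactate dehydrogenases and the enzymes between them. Every probeset that the platform annotation assigned to one of these genes and to no other was taken, which gave 28 of the 54675 probesets of the Affymetrix HG-U133 Plus 2.0 array. A probeset is a group of short probes against the same transcript, and its signal is a relative measure of RNA abundance. GAPDH and PGK1 had 6 probesets each, ENO1 had 4, ALDOA and TPI1 had 3 each, LDHB had 2, and ALDOC, ENO2, LDHA and PGAM1 had 1 each.

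The study profiled 11 human neuroblastoma cell lines, each on 1 array after 18 hours at 1% O2 (hypoxia) and on 1 array at 20% O2 (normoxia). The lines were GI-LI-N, ACN, SHEP-2, SK-N-BE2(C), IMR-32, SK-N-F1, LAN-1, SK-N-SH, GI-ME-N, SHEP21N with MYCN overexpression and SHEP21N without MYCN overexpression. MYCN encodes a transcription factor and is amplified in many aggressive neuroblastomas. In SHEP21N a MYCN transgene is switched off by tetracycline, and the cells without MYCN overexpression had been cultured with 50 ng/mL of it. As background, SHEP cells are a substrate-adherent derivative of SK-N-SH, so the 3 SHEP lines are related to each other, and the cell line is the replicate throughout. SHEP21N cells with and without MYCN overexpression were counted as separate lines, as in the study. In bulk RNA, a change per cell and a change in the number of cells that express a gene cannot be told apart.

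As background, aldolase splits a fructose bisphosphate into a pair of triose phosphates and triosephosphate isomerase interconverts them. GAPDH oxidises glyceraldehyde phosphate and reduces NAD, phosphoglycerate kinase makes ATP, phosphoglycerate mutase and enolase turn phosphoglycerate into phosphoenolpyruvate, and lactate dehydrogenase reduces pyruvate to lactate and so returns NAD to GAPDH. Many of these genes are textbook targets of the hypoxia-inducible factors (HIF), which bind DNA at the core letters ACGTG or GCGTG. Aldolase C and enolase 2 are the isoforms known from neurons and neuroendocrine cells, and aldolase A and enolase 1 are the widely expressed ones. LDHA encodes the muscle-type and LDHB the heart-type subunit of lactate dehydrogenase.

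The bases upstream of both genes of each isoform pair are shown because the pairs are compared below. They are the 250 bases before the annotated gene start on the strand of the gene (RefSeq, GRCh38.p14), written 5′ to 3′, with ACGTG or GCGTG on either strand in capitals and overlapping matches merged. ALDOC on the minus strand (chr17:28576896-28577145) and ALDOA on the plus strand (chr16:30064029-30064278) read as follows.
ALDOC: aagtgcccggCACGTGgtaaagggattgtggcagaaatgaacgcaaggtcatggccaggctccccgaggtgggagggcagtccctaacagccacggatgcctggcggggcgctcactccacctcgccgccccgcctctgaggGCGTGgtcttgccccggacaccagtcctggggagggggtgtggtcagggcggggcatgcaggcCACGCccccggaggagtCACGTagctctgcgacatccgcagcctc
ALDOA: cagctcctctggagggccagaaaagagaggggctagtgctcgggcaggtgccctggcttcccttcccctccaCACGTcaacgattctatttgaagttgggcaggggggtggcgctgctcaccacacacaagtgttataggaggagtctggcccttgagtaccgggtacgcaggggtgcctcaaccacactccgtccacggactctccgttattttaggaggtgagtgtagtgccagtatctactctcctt
ENO2 on the plus strand (chr12:6914330-6914579) and ENO1 on the minus strand (chr1:8878687-8878936) read as follows.
ENO2: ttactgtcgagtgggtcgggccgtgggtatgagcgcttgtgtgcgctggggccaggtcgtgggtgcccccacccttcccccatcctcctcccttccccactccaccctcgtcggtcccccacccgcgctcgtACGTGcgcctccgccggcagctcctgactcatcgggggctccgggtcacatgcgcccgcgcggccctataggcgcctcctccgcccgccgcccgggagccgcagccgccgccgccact
ENO1: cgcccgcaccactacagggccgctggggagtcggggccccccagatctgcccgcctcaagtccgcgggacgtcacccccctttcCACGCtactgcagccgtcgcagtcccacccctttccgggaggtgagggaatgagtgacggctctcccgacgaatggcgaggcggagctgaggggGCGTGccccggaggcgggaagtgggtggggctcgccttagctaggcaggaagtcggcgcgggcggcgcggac
LDHA on the plus strand (chr11:18394313-18394562) and LDHB on the minus strand (chr12:21657843-21658092) read as follows.
LDHA: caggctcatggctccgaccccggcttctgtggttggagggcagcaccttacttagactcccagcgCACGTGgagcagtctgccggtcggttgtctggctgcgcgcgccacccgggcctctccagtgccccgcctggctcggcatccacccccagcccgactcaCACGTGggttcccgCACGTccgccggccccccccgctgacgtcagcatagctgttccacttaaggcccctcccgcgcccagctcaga
LDHB: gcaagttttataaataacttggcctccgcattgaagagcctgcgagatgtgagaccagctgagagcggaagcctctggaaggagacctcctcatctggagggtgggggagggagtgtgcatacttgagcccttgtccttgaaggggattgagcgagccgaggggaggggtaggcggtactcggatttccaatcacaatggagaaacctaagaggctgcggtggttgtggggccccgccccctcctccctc

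The window of ALDOC held ACGTG 3 times and GCGTG 2 times over both strands, and that of ALDOA held ACGTG once. LDHA had 5 matches to ACGTG, counting CACGTG on both strands, while the window of LDHB had no match to either motif. ENO2 had 1 match to ACGTG and ENO1 had 2 to GCGTG. Windows at alternative starts, which are not shown, held ACGTG 2 times and once for ALDOA and GCGTG once for LDHA. Over all 35116 upstream windows of the same length in the table, 18.5% held ACGTG, 32.2% held GCGTG and 43.2% held either. Of the 14 windows listed for the 10 genes, alternative starts included, 9 held ACGTG (64.3%), 5 held GCGTG (35.7%) and 11 held either (78.6%). A match is a stretch of letters and not a measured binding site. Of the 10 genes, 4 lie on chromosome 12. GAPDH (6534517 to 6538371), TPI1 (6867420 to 6870948) and ENO2 (6914580 to 6923697) are near each other there, and LDHB (21635342 to 21657842) lies further along.

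Some arrays stood apart from the others. On the normoxic array of SHEP21N with MYCN overexpression, the ratio of the GAPDH control probesets at the 3′ and 5′ ends was 67.3, against 0.939 to 1.40 on the other 21 arrays, and the same ratio for ACTB was 94.0 against at most 5.05. Such ratios measure how complete the labelled RNA was. The arrays labelled SK-N-SH, IMR-32 and GI-LI-N resembled each other as much as the arrays of a single line did, with r of 0.925 to 0.931 across genes between their normoxic arrays and 0.868 to 0.943 between the conditions of a line. Between SHEP21N with and without MYCN overexpression r was 0.903 in normoxia and 0.925 in hypoxia. MYCN signals (209757_s_at) were 33350.0 or higher in SK-N-SH, SK-N-BE2(C), LAN-1, IMR-32 and GI-LI-N, 5788 and 6119 in SK-N-F1, and at most 55.3 in the other 5 lines, the 3 SHEP lines included. A second MYCN probeset, 209756_s_at, read 830.2 in hypoxia and 13.7 in normoxia in SHEP21N labelled with MYCN overexpression, against 25.3 and 28.7 in the cells labelled without it. The normoxic array with the high 3′ to 5′ ratios therefore did not show the overexpression of its label. The counts of calls are given with and without these arrays. Known hypoxia-responsive genes were checked as a list, and 7 of its 9 measured genes, VEGFA and BNIP3 among them, were called higher in hypoxia, against 0.147% of all genes. The list was chosen with earlier results of these data known, so it is no independent check. The neuroblastoma label was checked with 8 measured noradrenergic and 10 mesenchymal markers. Noradrenergic signals summed to 39357 to 74922 in normoxia in GI-LI-N, SK-N-BE2(C), IMR-32, SK-N-F1, LAN-1 and SK-N-SH, and to 418 to 3619 in GI-ME-N, ACN and the 3 SHEP lines, where the mesenchymal markers summed to 102922 to 156578 against 12664 to 31879. In those 5 lines at most 2 of the 8 noradrenergic markers reached a signal of 500 in normoxia, against 6 or 7 in the others.

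The RNA of ALDOC, ENO1, TPI1 and ALDOA rose in hypoxia, and none of the 10 genes was called lower. Each gene was read by its brightest probeset, signals were taken relative to the array median, and the change within a cell line was tested in limma with the line as a block and Benjamini-Hochberg adjustment over 19775 genes. A gene was called at an adjusted p under 0.05. Over all genes 0.147% were called higher and 0.0152% lower, against 4 and 0 of the 10 genes here. At an unadjusted p under 0.05 in limma, 8 of the 10 genes were higher and none lower, against 10.7% of all genes in either direction. The median log2 change of the 10 genes was 0.65, and that of all genes was -0.04. After median scaling 6 of the 10 genes, ALDOA, ALDOC, TPI1, PGK1, ENO1 and ENO2, were higher in hypoxia in all 11 lines, a pattern that 0.399% of all genes showed. In the values as deposited and with quantile normalization there were 5, since the brightest PGK1 probeset was then lower in SHEP21N with MYCN overexpression. Other PGK1 probesets differed from it in that line, as given below. The number of calls fell in this set and over all genes in the following fits with fewer lines. With all lines 29 of all genes were called higher and 3 lower. With the SK-N-SH, IMR-32 and GI-LI-N arrays merged into 1 line by their mean, 0 of the 10 were called, and 2 of all genes higher and 0 lower. With the SHEP lines averaged 1, ALDOC, was called (adjusted p = 0.0452 in limma), and 8 of all genes higher and 0 lower. Without SHEP21N with MYCN overexpression 3 were called, which were ALDOC, ENO1 and PGK1, and 20 of all genes higher and 3 lower. The log2 change of ALDOC was 2.13 with the 3 lines averaged, 2.27 with the SHEP lines averaged and 2.32 without that line.

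**Figure D1:**
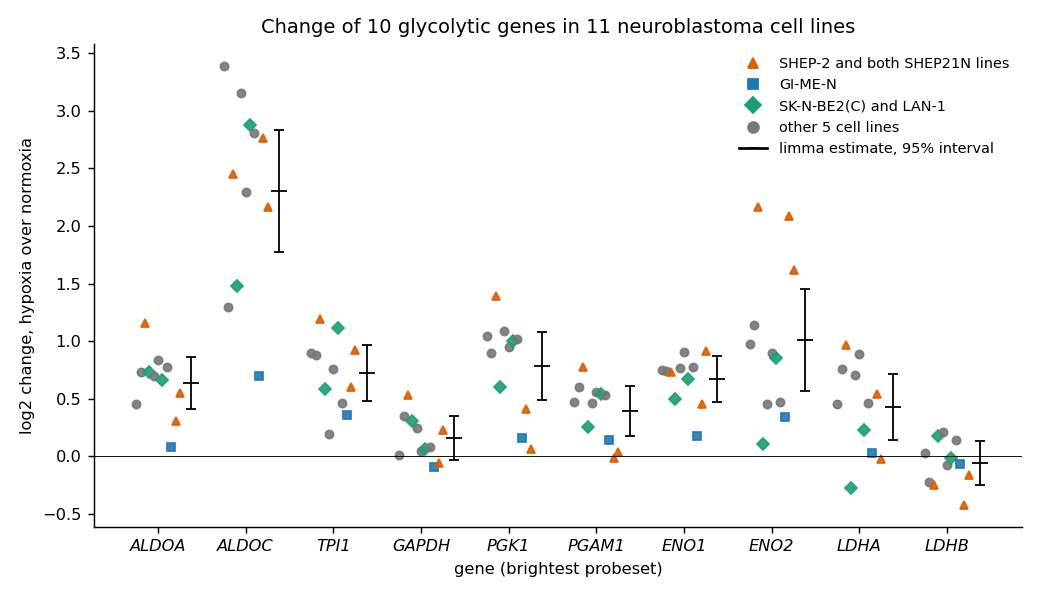
Log2 change (hypoxia over normoxia, after division by the array median) of each gene's brightest probeset in the 11 cell lines, 1 point per line, with the limma estimate and its 95% interval beside the points. ALDOC stands highest with an estimate of 2.31, LDHB lies about 0 (-0.06), and the square of GI-ME-N is near the bottom of most columns.

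Aldolase C was the member with the largest change. ALDOC had a signal of 170.0 at the lowest, 331 at the median and 1940.2 at the highest of the normoxic arrays, and of 797, 2031 and 4851 in hypoxia. The groups overlapped through ACN alone, whose normoxic signal of 1940.2 was the highest, since the other 10 normoxic signals were at most 602 and so below every hypoxic one. The fold change was 4.94 (95% interval 3.42 to 7.14, log2 change 2.31 with a standard error of 0.24, adjusted p = 0.00761 in limma, 11 lines). Log2 changes ran from 0.70 in GI-ME-N and 1.29 in ACN to 3.15 in IMR-32 and 3.39 in GI-LI-N. Leaving out each line in turn kept ALDOC called, with log2 changes of 2.20 to 2.47. Averaging SK-N-SH, IMR-32 and GI-LI-N ended the call, at an adjusted p of 0.0713 in limma and a log2 change of 2.13.

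Aldolase A changed less and in every line. The lowest, median and highest signals of ALDOA were 4227, 16799 and 29644 in normoxia and 8840.2, 26011 and 37561 in hypoxia. The groups overlapped widely, since the spread between lines was larger than the change within a line. ALDOA changed 1.55-fold (95% interval 1.33 to 1.82, adjusted p = 0.0437 in limma), and SHEP-2, which had the lowest signals in both conditions, had the largest log2 change (1.16). The call was lost when any line other than GI-ME-N was left out (adjusted p up to 0.142 in limma). A second probeset, 200966_x_at, changed by 0.65 on the log2 scale. The third, 238996_x_at, was dimmer, with a log2 change of 1.20 and a standard error of 0.38, and went from 13.2 to 423 in SHEP-2. The suffix _x_at marks probesets that may cross-hybridise with other transcripts, and it is carried by all 3 of ALDOA, the 3 of GAPDH that are no controls, both of LDHB and 1 of TPI1.

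At the brightest probesets the rise of ALDOC was larger than that of ALDOA in 11 of 11 lines. Within a line the difference of log2 changes averaged 1.67 ± 0.82 (SD, n = 11), from 0.56 in ACN to 2.93 in GI-LI-N (exact two-sided sign-flip permutation p = 0.000977, adjusted over 3 isoform pairs 0.00293). This is the smallest p that 11 lines can give, and scaling of the arrays cancels in such a difference. With the 3 related SHEP lines treated as independent, and likewise the similar SK-N-SH, IMR-32 and GI-LI-N, these permutation p-values may be too small. With either set averaged the adjusted permutation p was 0.0117 (mean difference 1.64 for the SHEP lines averaged, 1.49 for the others). With both sets averaged it was 0.0469 (mean difference 1.41). With the average over the probesets of a gene the mean difference was 1.47, and ALDOC rose more in 10 of 11 lines. The exception was SHEP-2 (-0.07).

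**Figure D2:**
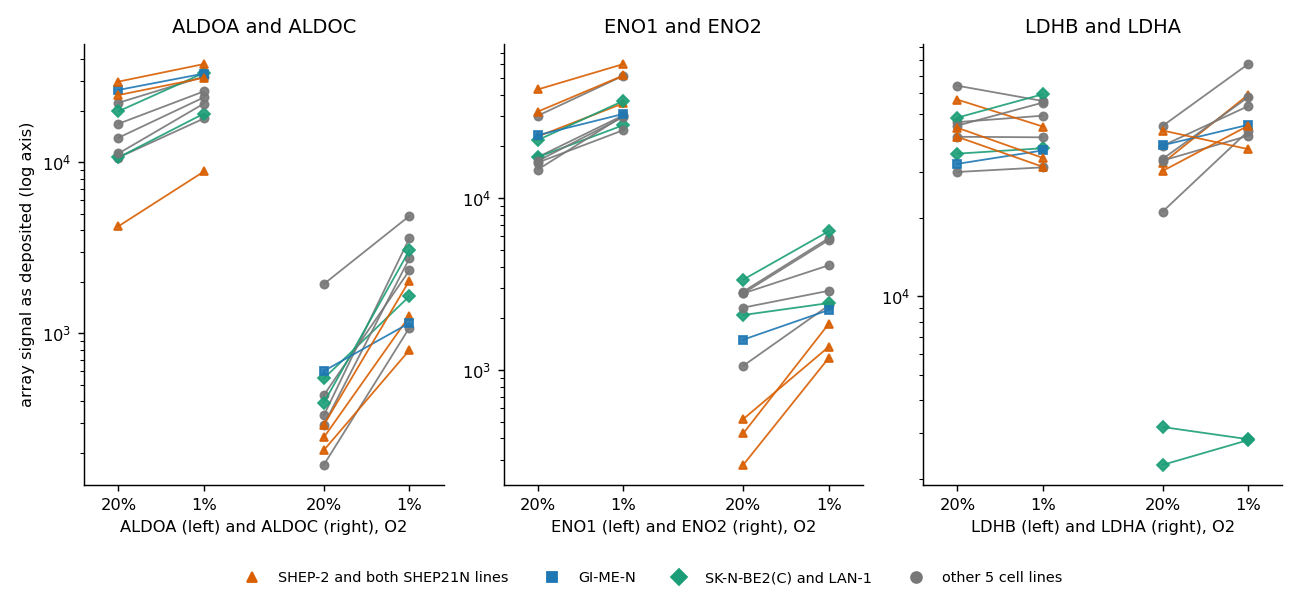
Deposited signals (log axis) of the isoform pairs ALDOA and ALDOC, ENO1 and ENO2, and LDHB and LDHA at 20% and 1% O2, with 1 line per cell line. Lines rise steeply for ALDOC, the 3 SHEP lines start lowest for ENO2 (280.5 to 518), and SK-N-BE2(C) and LAN-1 stay near the bottom for LDHA.

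TPI1, which interconverts the triose phosphates, was higher in hypoxia in all lines at its brightest probeset. Its signals were 10834, 20557 and 37389.8 (lowest, median and highest) in normoxia and 21733, 32099 and 49005 in hypoxia. The lowest normoxic signals were those of SHEP-2 and ACN. The log2 change was 1.19 in SHEP-2, whereas IMR-32, the highest line in normoxia, changed by 0.19. TPI1 changed 1.65-fold (95% interval 1.40 to 1.96, adjusted p = 0.0322 in limma). Without IMR-32 or GI-ME-N the call was kept and without any other line it was lost, with adjusted p up to 0.113. Probeset 200822_x_at gave a log2 change of 0.65, and the dim 210050_at, with a mean signal of 367, gave 0.60 with a standard error of 0.28.

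GAPDH, often used as a reference gene, showed no called change. The lowest, median and highest signals of its brightest gene probeset were 33983, 47644 and 62088 in normoxia and 34261, 46967 and 80953 in hypoxia, so the groups overlapped almost fully. The fold change was 1.12 with a 95% interval of 0.978 to 1.27 (adjusted p = 0.549 in limma), and 9 of 11 lines were higher. The largest log2 changes were 0.53 in SHEP-2 and 0.35 in ACN. The interval leaves room for a rise of up to 1.27-fold. The 3 control probesets along the transcript disagreed, with log2 changes of 0.16 at the 3′ end, 0.38 in the middle and 0.79 at the 5′ end. On the normoxic array of SHEP21N with MYCN overexpression the signal was 47004 at the 3′ end, 12143 in the middle and 698 at the 5′ end, against 29859 to 54468 for the 5′ probeset on the other 10 normoxic arrays. Without that line the log2 changes were 0.16, 0.23 and 0.26.

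**Figure D3:**
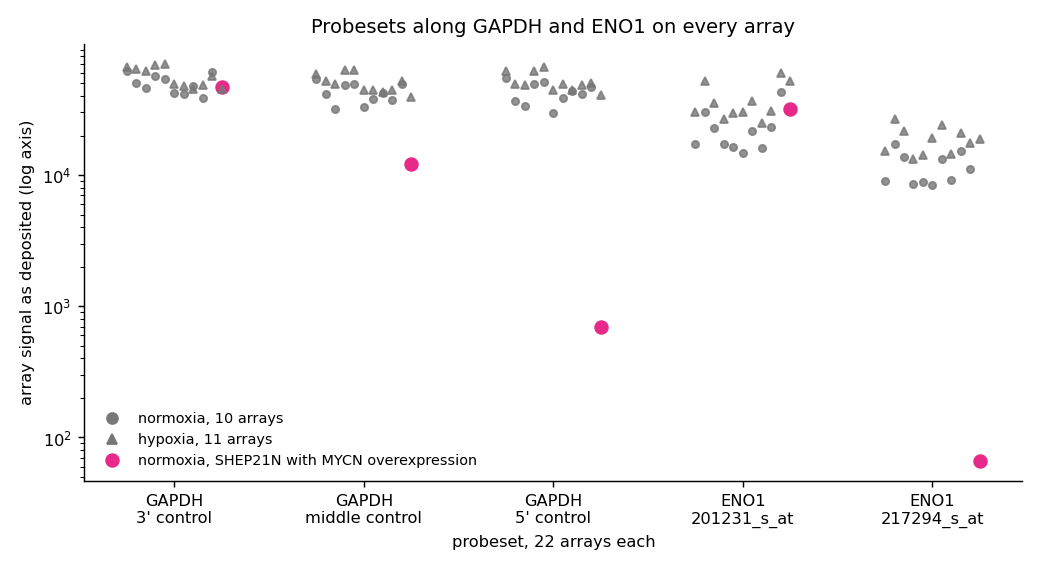
Deposited signals (log axis) of the 3 GAPDH control probesets and of a pair of ENO1 probesets on all 22 arrays. The enlarged circle, the normoxic array of SHEP21N with MYCN overexpression, lies among the others at the 3′ end of GAPDH but at 698 at the 5′ end and at 65.7 for 217294_s_at of ENO1.

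PGK1, the ATP-making kinase, had 6 probesets that differed in size of change. The brightest, 200738_s_at, had signals of 11828, 15923 and 32561 in normoxia and 21589, 32048 and 55939.6 in hypoxia (lowest, median and highest). The groups overlapped because ACN, GI-ME-N and both SHEP21N lines were already high in normoxia (23694 or more). In SHEP21N with MYCN overexpression its log2 change was 0.07 after median scaling, -0.15 in the values as deposited and -0.24 with quantile normalization, and in the other 10 lines it was above 0 under all 3 scalings. After median scaling the other probesets changed in that line by 1.92 (217356_s_at), 0.98 (200737_at), -0.24 (227068_at), 4.30 (1558365_at) and 0.43 (217383_at). On its normoxic array, which had the high 3′ to 5′ ratios, 200738_s_at read 2.11 times the median of the other 10 normoxic arrays. For 217356_s_at this ratio was 0.653. Without that line the log2 change of 200738_s_at was 0.86. With all lines the fold change of 200738_s_at, 1.72 (95% interval 1.40 to 2.11), just missed the threshold over all genes (adjusted p = 0.0528 in limma). The next in brightness had larger estimates, 217356_s_at by 2.34-fold (adjusted p = 0.0138) and 200737_at by 2.24-fold (adjusted p = 0.0208), both in limma over 54675 probesets. With ALDOC these were the only 3 of the 28 probesets called, all higher, and 0.0457% of all probesets were called higher and 0.00183% lower. Probeset 200737_at had signals of 2106, 3353 and 10337 in normoxia and 4738, 10177 and 18148 in hypoxia. Probeset 227068_at gave a log2 change of 0.96, and the dim 1558365_at and 217383_at, with mean signals of 256 and 153, gave 1.67 and 0.83. Of these, 227068_at was higher in 10 of 11 lines and 217383_at in 9. With SK-N-SH, IMR-32 and GI-LI-N averaged, with the SHEP lines averaged, or without both SHEP21N lines, 0 of the 28 probesets were called. In these fits 0, 9 and 12 of all probesets were called higher and 0 lower.

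**Figure D4:**
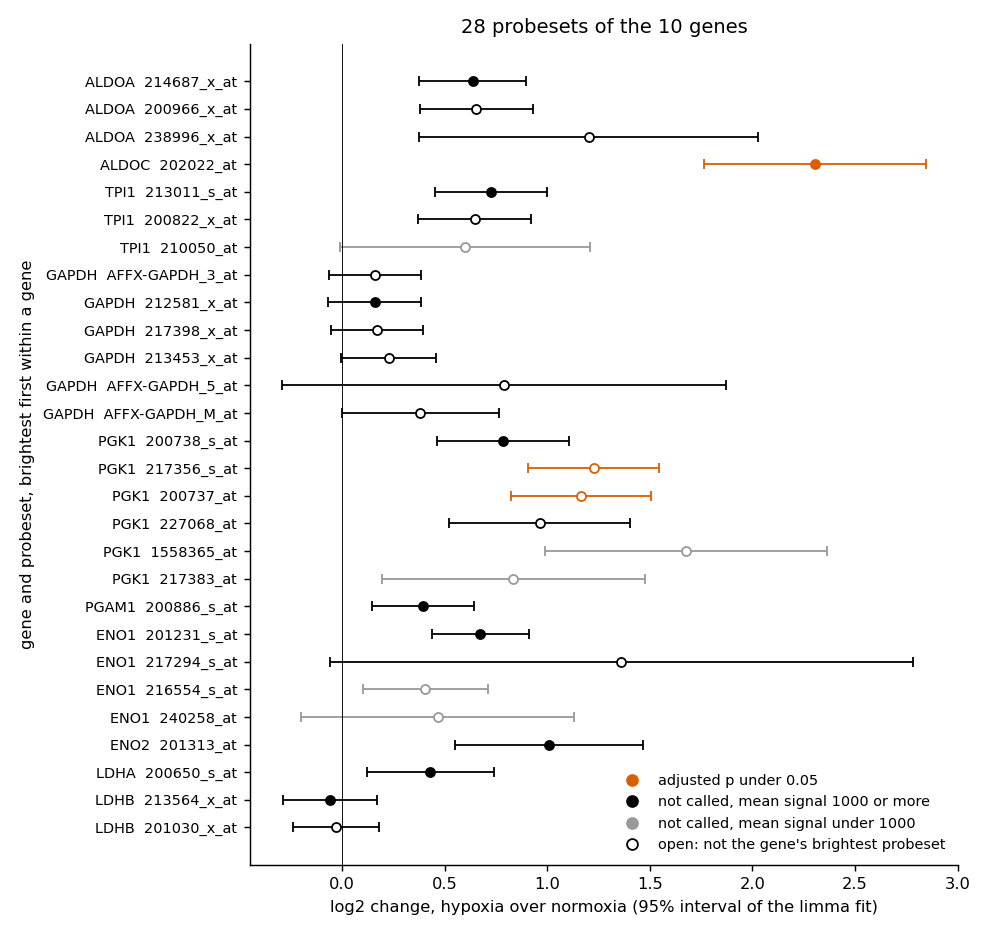
Log2 change (hypoxia over normoxia) of all 28 probesets with the 95% interval of the limma fit, ordered by gene and by mean signal within a gene, with filled points for each gene's brightest probeset. The intervals of ALDOC and 2 PGK1 probesets, the called ones, lie far from 0, and those of 217294_s_at and the 5′ GAPDH control are the widest.

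PGAM1, the mutase, had signals of 11695, 15259.8 and 28098 in normoxia and 17107, 22009 and 28499.7 in hypoxia (lowest, median and highest). Both SHEP21N lines were highest in normoxia and changed by only -0.02 and 0.04 on the log2 scale, while SHEP-2 changed by 0.78. The signs in both SHEP21N lines turned in the values as deposited and with quantile normalization. PGAM1 changed 1.32-fold (95% interval 1.13 to 1.53, 10 of 11 lines higher, adjusted p = 0.195 in limma), which did not pass the threshold.

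Enolase 1 rose in every line at its brightest probeset. ENO1 had signals of 14676, 21773 and 42917 in normoxia and 24879, 30917 and 60309.6 in hypoxia (lowest, median and highest), with both SHEP21N lines and ACN highest in both conditions. The log2 change was the most even among the called genes (SD 0.22 over lines), with 9 of the 11 lines between 0.50 and 0.92. Only GI-ME-N (0.18) and SHEP21N without MYCN overexpression (0.45) lay below. This was a 1.59-fold rise (95% interval 1.39 to 1.83, adjusted p = 0.0167 in limma). Leaving out 1 line ended the call for GI-LI-N, IMR-32, SK-N-F1, LAN-1 or SK-N-SH, with adjusted p up to 0.0693. Probeset 217294_s_at gave a log2 change of 1.36, but its signal was 65.7 on the normoxic array of SHEP21N with MYCN overexpression, against 8345 to 17199 on the other 10 normoxic arrays. Without that line it gave 0.66, close to the 0.65 of the brightest probeset in the same 10 lines. Over all lines the dim 216554_s_at, with a mean signal of 517, gave 0.41 and was higher in 9 of 11 lines. The dimmer 240258_at, with a mean signal of 143, gave 0.47 with a standard error of 0.31 and was higher in 7.

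Enolase 2 had a higher signal in hypoxia in all 11 lines but varied more between them. ENO2 had signals of 280.5, 2089 and 3357 in normoxia and 1176, 2451 and 6421 in hypoxia (lowest, median and highest). The 6 lines with high noradrenergic markers had normoxic signals of 2089 to 3357, GI-ME-N had 1502 and ACN 1058, and the 3 SHEP lines had 280.5, 428 and 518. ENO2 changed 2.01-fold (95% interval 1.48 to 2.74, adjusted p = 0.110 in limma), which did not pass over all genes. Log2 changes were 2.16, 2.08 and 1.62 in the SHEP lines, 1.14 in ACN, and 0.11 to 0.98 in the other 7 lines. The SHEP lines were set against the other 8 as an interaction in limma, which gave a difference of 1.30 with a standard error of 0.26 (unadjusted p = 0.000484, adjusted p = 0.228 over all genes). That difference did not pass the adjustment, nor did those of the other 9 genes (adjusted p = 0.538 or more), and over all genes 0.0101% passed. Without SHEP21N with MYCN overexpression the difference for ENO2 was 1.47 (adjusted p = 0.173). Only the SHEP21N arrays had a lowest signal of 3.3, while the lowest signals of the SHEP-2 arrays, 0.614 and 0.679, lay among those of the other 8 lines (0.0921 to 0.803). SHEP-2 had the lowest normoxic signal of ENO2 and the largest log2 change. Without both SHEP21N lines the difference, then that of SHEP-2 alone from the other 8 lines, was 1.51. Whether array processing had a part in the difference was not tested, and provider and lineage of the SHEP lines cannot be told apart.

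The change of ENO2 minus that of ENO1 averaged 0.34 ± 0.67 (SD, n = 11) and was positive in 7 lines (exact sign-flip permutation p = 0.138, two-sided, also 0.138 adjusted over the 3 pairs). It was 1.63, 1.43 and 0.70 in the SHEP lines and between -0.39 and 0.39 in the others. With the average over the probesets of a gene the mean difference was 0.28, and it was positive in 5 lines. The mean difference was smaller than its SD over lines, and the isoforms were not shown to differ in their response.

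LDHA split the lines into a low pair and the rest. It had normoxic signals of 3160.1 in SK-N-BE2(C) and 2263 in LAN-1, against 21117 to 44943 in the other 9 lines. In hypoxia they were 2838 and 2817, against 36613 to 77539.5. The gap to the other lines is a description, as the pair was picked by these signals. Both lines had high MYCN signals, and so did SK-N-SH, IMR-32 and GI-LI-N, whose LDHA signals in normoxia were 33099 to 37736. Only 1 probeset measures LDHA, and whether its probes match the transcript of these lines was not tested. The fold change over all lines was 1.35 (95% interval 1.11 to 1.64, 9 of 11 lines higher, adjusted p = 0.275 in limma) and did not pass. It was largest in SHEP-2 (log2 change 0.96) and SK-N-F1 (0.89), and below 0 in SK-N-BE2(C) (-0.27) and SHEP21N with MYCN overexpression (-0.02).

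LDHB, the partner subunit, showed no called change. Its signals were 29936, 44208 and 64053 in normoxia and 31183, 40639.7 and 59420.1 in hypoxia (lowest, median and highest), and in normoxia SK-N-BE2(C) and LAN-1 lay inside the range of the other lines. The fold change was 0.960 with a 95% interval of 0.840 to 1.10 (4 of 11 lines higher, adjusted p = 0.850 in limma). The second probeset, 201030_x_at, gave a log2 change of -0.03. The change of LDHA exceeded that of LDHB in 10 of 11 lines, by 0.49 ± 0.50 on the log2 scale (SD, n = 11, exact two-sided sign-flip permutation p = 0.0107, adjusted over the 3 pairs 0.0161). The exception was SK-N-BE2(C) with -0.45. With SK-N-SH, IMR-32 and GI-LI-N merged into 1 line by their mean the difference was 0.51 and its adjusted permutation p 0.0527.

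The baseline level differed between lines far more for some of the genes than for others. The SD of the normoxic log2 level over the 11 lines was 1.49 for ENO2, 1.45 for LDHA, 1.04 for ALDOA, 0.94 for ALDOC and 0.74 for TPI1. It was 0.56 for PGK1, 0.50 for PGAM1, 0.49 for ENO1, 0.25 for GAPDH and 0.16 for LDHB, and its median over all genes was 1.10. The order of GAPDH and LDHB turned with the scaling, as their SDs were 0.31 and 0.33 in the values as deposited. With a single array per line and condition these SDs hold array error too, and no line's level has an error of its own. Leaving out the normoxic array of SHEP21N with MYCN overexpression lowered the SD of GAPDH to 0.14. After median scaling SHEP-2 was the lowest line for ALDOA, ALDOC, TPI1, PGK1 and ENO2. No genes of the set were compared with each other in level, since probesets of different genes bind with different strength.

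**Figure D5:**
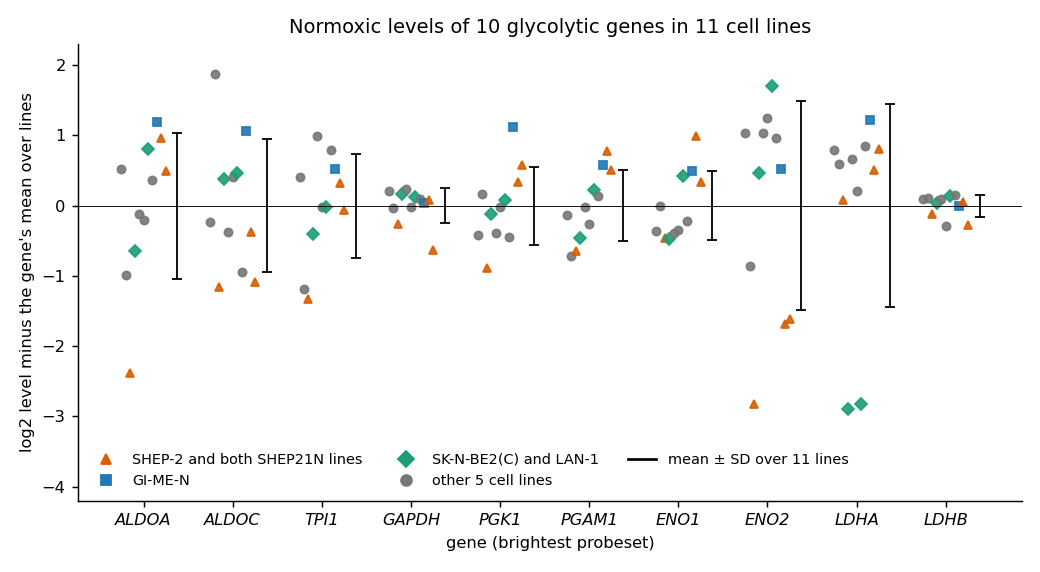
Normoxic log2 level (signal over array median) of each gene's brightest probeset in each line, minus the mean of the gene over the 11 lines, with the SD as a bar. LDHB (SD 0.16) and GAPDH (0.25) are tight, SK-N-BE2(C) and LAN-1 lie far below the other lines for LDHA, and the 3 SHEP lines are lowest for ENO2.

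The lines at the ends of the response differed with the scaling. After median scaling the median log2 change of the 10 genes was 1.06 in SHEP-2 and 0.15 in GI-ME-N, and between 0.39 and 0.87 in the other 9 lines. With quantile normalization it was highest in SK-N-F1 (0.97), followed by SHEP-2 (0.88), and lowest in SHEP21N with MYCN overexpression (0.22), followed by GI-ME-N (0.24). In the values as deposited SK-N-F1 was highest too (1.00) and SHEP21N with MYCN overexpression lowest (0.17). After median scaling SHEP-2 had the largest change for 7 of the 10 genes, against 4 with quantile normalization and 3 as deposited. GI-ME-N had the smallest for 4 and was among the smallest 3 for 9, with ALDOC at 0.70, ALDOA at 0.09 and PGK1 at 0.16. In every line 7 to 10 of the genes were higher in hypoxia after median scaling, and 6 to 10 under the other scalings. With 1 array per condition, a line's own response has no replicate check. In the SHEP21N pair, the hypoxic array with MYCN overexpression had 0.402 of the level of ALDOC without it and 0.960 of that of TPI1, the extremes of the 10 genes (signals over the array median, 1 array each and no test).

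Across the 11 lines, the change of PGK1 followed the mean change of the other 9 genes most closely (r = 0.73), followed by ALDOA (0.69) and ENO1 (0.67). The lowest values were those of ENO2 (0.27) and LDHB (-0.22). Without SHEP21N with MYCN overexpression r was 0.89 for PGK1, and with SK-N-SH, IMR-32 and GI-LI-N merged ALDOA came first (0.77). Outside the set, the 5 genes whose changes were most like the mean change of the 10 were ZNF74 (r = 0.90), MEIS1 (0.90), SCARB2 (0.88), SEMA4G (0.86) and MAP7D2 (0.86) over 11 lines. None of these 5 was called in hypoxia (adjusted p from 0.700 to 0.995 in limma). These correlations are descriptions, as the points share arrays and the 3 SHEP lines are related. The 5 were also picked for the highest r outside the set, where 12519 genes, the members included, reached a mean signal of 100.

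The rest of the pathway was read from lists of genes. The list for glucose uptake and the other glycolytic steps held 18 measured genes and no measured lactate exporter, and 4 were called higher and none lower. These were HK2, which traps glucose in the cell (log2 change 1.26, adjusted p = 0.0128 in limma), PFKFB4, which sets the level of the activator of phosphofructokinase (2.24, adjusted p = 0.0148), PFKP, a phosphofructokinase (0.99, adjusted p = 0.0350), and PGM1, which links glycogen to glycolysis (0.81, adjusted p = 0.0437). The median log2 change of the list was 0.73, against -0.04 over all genes, and 8 of the 18 were higher in 11 of 11 lines after median scaling. The 14 others did not pass.

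The list of other isoforms of the same steps held 9 measured genes, and none was called in either direction (median log2 change 0.24). BPGM, which makes bisphosphoglycerate beside the PGK1 step, had a log2 change of -0.33 and was lower in 11 of 11 lines (adjusted p = 0.244 in limma). LDHAL6A (0.58), LDHD (0.33) and PGAM2 (0.25) had mean signals of at most 68.2. In the list for entry of pyruvate into mitochondria 1 of 12 genes was called, PDK1, which inhibits pyruvate dehydrogenase, with a log2 change of 2.12 (adjusted p = 0.0135 in limma) and 10 of 11 lines higher. The median of that list was -0.19. None of 9 genes of the pentose phosphate and glycerol shunts was called (median -0.11), where GPD2 (-0.38), RPIA (-0.29), GPD1L (-0.18) and RPE (-0.18) had the smallest p. None of 7 genes of gluconeogenesis was called (median 0.16), where G6PC3 (-0.23), PC (0.16), FBP1 (0.32) and FBP2 (-0.24) had the smallest p.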

How the data were processed

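RNA of 22 cultures (11 neuroblastoma cell lines, each in hypoxia and normoxia) was hybridised to 1 Affymetrix HG-U133 Plus 2.0 array each. The deposited values are intensity signals on a linear scale that the authors made with the MAS5 algorithm and scaled to an average of 500 per array. No genome build enters them. In the files the trimmed mean was 497.684 to 499.980 and the median 69.4 to 133.6 per array, so they had not been divided by the median. Arrays have no read depth, and their number limits the precision, as each line has a single array per condition. The p-values measure the spread between lines, of which the 3 SHEP lines are related, and no source states separate cultures within a line.

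All values were analysed as log2 of the signal over the median of the array. The platform annotation gave 41097 of 54675 probesets 1 gene, 1801 several and 11777 none, and 41043 of the first were matched to current RefSeq symbols. Each of 19775 genes was read by its brightest single-gene probeset, array controls excluded. Hypoxia was compared with normoxia by linear models blocked on the cell line (limma 3.58.1 in R 4.3.3), since the labels pair the arrays of a line, and adjusted by Benjamini and Hochberg over all genes or all probesets. Genes were called at an adjusted p under 0.05. Isoform pairs were compared by exact sign-flip permutation over 2048 sign patterns (Python 3.11.15, numpy 2.4.6, scipy 1.17.1). The gene-level fit was checked on simulated data with 19775 genes, where it recovered 47 of 100 genes made to change by 1 on the log2 scale, 77 of 100 made to change by 2, and called 8 of 19575 unchanged genes.

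The members and lists were chosen with earlier results of these data known. Named were all 10 members with their probesets, the called genes of each pathway list (or the 4 with the smallest p where none or more than 4 were called), and the 5 genes outside the set with the highest r to the mean change of the members, at a mean signal of at least 100. The alternatives were deposited or quantile-normalized values, a floor of 50, a filter at 100, no block, a paired t-test and Welch's test over all genes, averaged related lines, lines left out, other limits and the average over the probesets of a gene. The tumor profiles were not used here.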

Additional observations from a re-analysis of the deposited data

How the results depend on the processing

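The number of the 10 genes called in hypoxia, 4, became 7 with a floor of 50, 2 with the average over the probesets of a gene, and 1 without the replicate block, with Welch's test, with the SHEP lines averaged, with both SHEP21N lines left out, at an adjusted p of 0.01 or with a 2-fold limit. It became 0 with SK-N-SH, IMR-32 and GI-LI-N averaged and 0 with both averages, and 1 to 5 with each cell line left out in turn. The number of called probesets, 3, became 10 with a floor of 50 and 10 with a minimum mean signal of 100, 8 with a paired t-test, 1 without the replicate block, with Welch's test or at an adjusted p of 0.01, and 0 with the SHEP lines averaged, with SK-N-SH, IMR-32 and GI-LI-N averaged, with both averages or with both SHEP21N lines left out. It was 1 to 3 with each line left out. The counts over all genes moved too. From 29 higher and 3 lower they became 60 and 118 with the floor and 14 and 0 with the average over probesets. They became 4 and 0 without the block, 3 and 0 with Welch's test, and 0 and 0 with both averages. At an adjusted p of 0.01 they were 3 and 0, with the 2-fold limit 21 and 2, and without both SHEP21N lines 13 and 0. With each line left out in turn 7 to 28 of all genes were called higher and 0 to 3 lower. Over all probesets 25 higher and 1 lower became 71 and 101 with the floor and 33 and 26 with a paired t-test. With the minimum mean signal they became 72 and 23 of 28515. They were 8 and 0 at an adjusted p of 0.01, 9 and 0 without the block and 7 and 0 with Welch's test. With the SHEP lines averaged they were 9 and 0, and without both SHEP21N lines 12 and 0. With SK-N-SH, IMR-32 and GI-LI-N averaged, or with both averages, they were 0 and 0. With each line left out 8 to 24 of all probesets were called higher and 0 lower. Averaging and leaving out lines leave fewer pairs for the fit, and for the floor and the filter the cause was not tested.

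The isoform difference of ALDOC and ALDOA was 1.54 to 1.78, that of ENO2 and ENO1 0.21 to 0.41, and that of LDHA and LDHB 0.42 to 0.58 with each line left out, on the same side of the threshold as with all lines. LDHA minus LDHB lost its call with SK-N-SH, IMR-32 and GI-LI-N averaged (0.51, adjusted permutation p = 0.0527) and with both averages (0.43, adjusted permutation p = 0.141). The contrast of the SHEP lines with the others called 1 of the 10 genes, ENO2, with a floor of 50 (adjusted p = 0.04995 in limma) and 0 otherwise.

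The normoxic SD moved to 0.78 for ALDOA, 0.54 for TPI1, 0.16 for GAPDH and 0.34 for PGAM1 with quantile normalization, to 0.55 for TPI1, 0.31 for GAPDH and 0.33 for LDHB with deposited values, and to 1.55 for ALDOA, 0.53 for TPI1, 0.67 for ENO1 and 0.23 for LDHB with that average, and the cause was not tested. No count or mean isoform difference reversed its direction under the alternatives run. The contrast of the SHEP lines kept its sign for ALDOC, TPI1, ENO2 and LDHB. It turned in some alternatives for ALDOA, GAPDH, PGK1, PGAM1, ENO1 and LDHA. Chosen after seeing the data were the other scalings within single lines and the normoxic SD without the arrays that stood apart. Of 110 changes of a gene in a line, 9 turned their sign in the values as deposited and 8 with quantile normalization, among them PGK1 and PGAM1 in SHEP21N with MYCN overexpression, PGAM1 in SHEP21N without it, and otherwise GAPDH and LDHB. The normoxic SD of GAPDH moved to 0.14 without the normoxic array of SHEP21N with MYCN overexpression, and the other 9 SDs, and all 10 with SK-N-SH, IMR-32 and GI-LI-N merged, stayed within their error.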
